A study of Mus musculus with 4 samples.

Results

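The genes described here are 10 mouse genes of pre-mRNA splicing and RNA processing: Snrpd1, Prpf4, Smu1, Pnisr, Ptbp3, Zfr, Ncbp1, Thoc1, Drosha and Exosc3. They were taken by symbol from count tables of 56748 gene IDs, and each symbol matched 1 ID. RNA came from lymph nodes of 4 mice with experimental autoimmune encephalomyelitis (EAE), in which the immune system is induced to attack the central nervous system. The BrQ group was 2 EAE mice given 2-bromo-1,4-naphthalenedione, a brominated quinone, and the control group was 2 EAE mice given vehicle. All 4 mice thus carried the disease, and no mouse without it was part of these data. Strain, age, dose, time and the way EAE was induced are not given in the labels. Replicates are named by their label numbers, 1 and 3 in each group.

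Splicing removes introns from a nascent transcript in a particle, the spliceosome, that is built from small nuclear ribonucleoproteins (snRNPs) and many other proteins. Regulators such as the polypyrimidine tract binding proteins steer which exons are kept. Other factors bind the cap of the transcript, load it for export, cut microRNA precursors out of it, or degrade it. Most of these factors are used in nearly every cell, lymphocytes included, and changes of splicing accompany lymphocyte activation.

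The libraries held 6813832 to 7989226 reads in gene intervals. Another 86.8% to 88.8% of all read rows lay in no gene interval, more in either BrQ library than in either Vehicle library. Most symbols in the tables appeared not to sit on the reads of their genes, so the surroundings of each member were described. On GENCODE M21 positions (GRCm38), the share of protein-coding names within 500 kb that averaged at least 50 reads ran from 37.5% (Prpf4) and 40% (Snrpd1 and Thoc1) to 83.3% (Zfr and Exosc3). The median of this share around all 21525 protein-coding genes was 20.9%. The members were taken from chromosome parts where symbols appeared to hold their own reads, so higher shares around them follow from that choice. By name, lymphocyte markers were present in part: Pax5 held 8178 to 8522 reads, Cd72 7952 to 13917 and Il7r 4097 to 5869, while Ms4a1 held 0 in all 4 libraries. Summed reads of the 6 B cell names were 16837 and 16920 in BrQ and 22239 and 22670 in Vehicle, and those of the 6 T cell names 7033 and 7485 against 9694 and 9781. Members of these lists differed: Cd72, Il7r, Sit1 and Cd4 had fewer reads in both BrQ libraries, Cd79a, Cd79b, Cd3e and Cd8a had more, and Pax5 overlapped between the groups. The leukocyte gene Ptprc went the other way, with 309 and 353 reads in Vehicle and 1019 and 1224 in BrQ. The 4 myeloid names summed to at most 55 reads in a library. Of 5 stroma names 3 held 0, as did Hbb-bs of the 2 red blood cell names, and Hba-a1 held 227 to 234 reads in BrQ and 415 to 416 in Vehicle. These sums moved with the groups, and their part in the results was not tested. In such bulk RNA, fewer cells of a type and less RNA per cell cannot be told apart.

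The row of Prpf4 was not shown to hold Prpf4 reads. Of 12 protein-coding names within 150 kb of it, 4 held at most 1 read over the 4 libraries together: Slc31a2, Fkbp15, Alad and Pole3. The subunit of DNA polymerase epsilon that Pole3 encodes and the heme synthesis enzyme that Alad encodes are needed in most cells. The names from Cdc26 through Prpf4 to Hdhd3, 6 in a row, all held more reads in BrQ than in Vehicle whichever 2 libraries were set together, with log2 fold changes from 0.51 (Bspry and Cdc26) to 0.87 (Rnf183); 3 of the 6 passed the test, Cdc26, Wdr31 and Prpf4. These neighbours were chosen after their values were seen, and such runs were not particular to Prpf4: Zfr and all 4 names within 150 kb of it also held more reads in both BrQ libraries than in either Vehicle library. Snrpd1 has a neighbour of the same kind, since Abhd3, the next name after it, held 0, 1, 0 and 0 reads in BrQ 1, BrQ 3, Vehicle 1 and Vehicle 3. The names on its other side and beyond Abhd3, Esco1 and Mib1, held 555 to 1716 reads. Around Smu1, Pnisr, Ptbp3, Zfr, Ncbp1, Thoc1 and Exosc3, no name within 150 kb held so few reads. Around Drosha, 1 of 3 did, Cdh6, a cadherin restricted to few tissues. Frmpd1, near Exosc3, came close, with 1, 0, 2 and 0 reads in the same library order. Within 500 kb, 8 of 16 names around Prpf4 held at most 1 read in total, and 4 of 13 around Ptbp3. Ncbp1 had 2 of 16, Snrpd1, Pnisr, Thoc1, Drosha and Exosc3 had 1 each, and Smu1 and Zfr had 0. Because of the names around Prpf4, counts of members are also given without it.

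**Figure D1:**
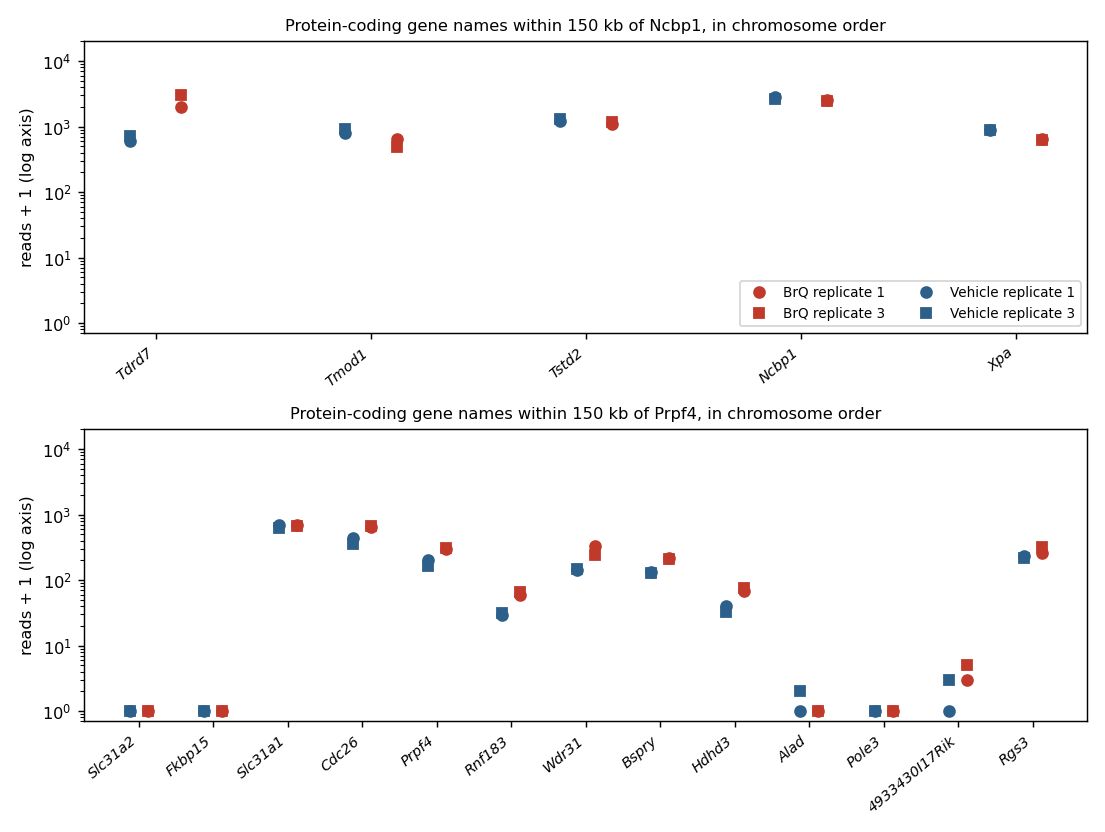
Reads plus 1 (log axis) for each protein-coding name within 150 kb of Ncbp1 (top) and Prpf4 (bottom), in chromosome order, with BrQ in red and Vehicle in blue, circles for replicate 1 and squares for replicate 3. All names around Ncbp1 held 486 reads or more in each library, while 4 of the 12 names around Prpf4 held at most 1 read in total.

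All 10 members were read in all 4 libraries, with 162 (Prpf4, Vehicle 3) to 9752 reads (Pnisr, Vehicle 3). Ptbp3, a splicing regulator, was 1.87-fold higher in BrQ. Thoc1, an mRNA export factor, was 2.02-fold lower, Snrpd1, a core protein of the snRNPs, 1.95-fold lower, and the serine-rich protein gene Pnisr 1.82-fold lower. These 4 calls held in the main comparison and under each of 15 other settings. The share of all features whose calls held throughout is not given here, so this is a description of the 4 alone. Their changes were larger in size than those of 58.65% (Pnisr) to 66.89% (Thoc1) of all features tested. Smu1, Ncbp1 and Drosha fell by 0.36 to 0.45 on the log2 scale, and the interval labelled Prpf4 was called higher, all 4 with calls that several settings ended. Zfr and Exosc3 did not pass.

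In counts, 8 of the 10 members passed an adjusted p of 0.05 by edgeR's quasi-likelihood test, 2 higher and 6 lower in BrQ, and 7 of 9 without Prpf4, 1 higher and 6 lower. Of all 10223 features tested, 45.7% passed, 23.6% as higher and 22.2% as lower. Levels were expressed as CPM (the reads of a gene relative to all gene reads of its library, scaled by the trimmed mean of M values, TMM), and these did not overlap between the groups for any of the 10 members. The same held for 76.1% of all features, so non-overlap was common here. The median log2 fold change of the members was -0.36, against 0.05 over all features, and the median size of the change, whatever its sign, was 0.49 against 0.71. In Vehicle, replicate 3 stood above replicate 1 for 9 of the 10 members, all but Prpf4. The SD in CPM was wider in Vehicle than in BrQ for all members but Ptbp3 and Exosc3. Vehicle 3 also had the highest share of mitochondrial reads among gene reads (30.2%, against 20.6% in Vehicle 1 and 15.8% and 12.1% in BrQ 1 and 3); the part of this in the results was not tested.

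**Figure D2:**
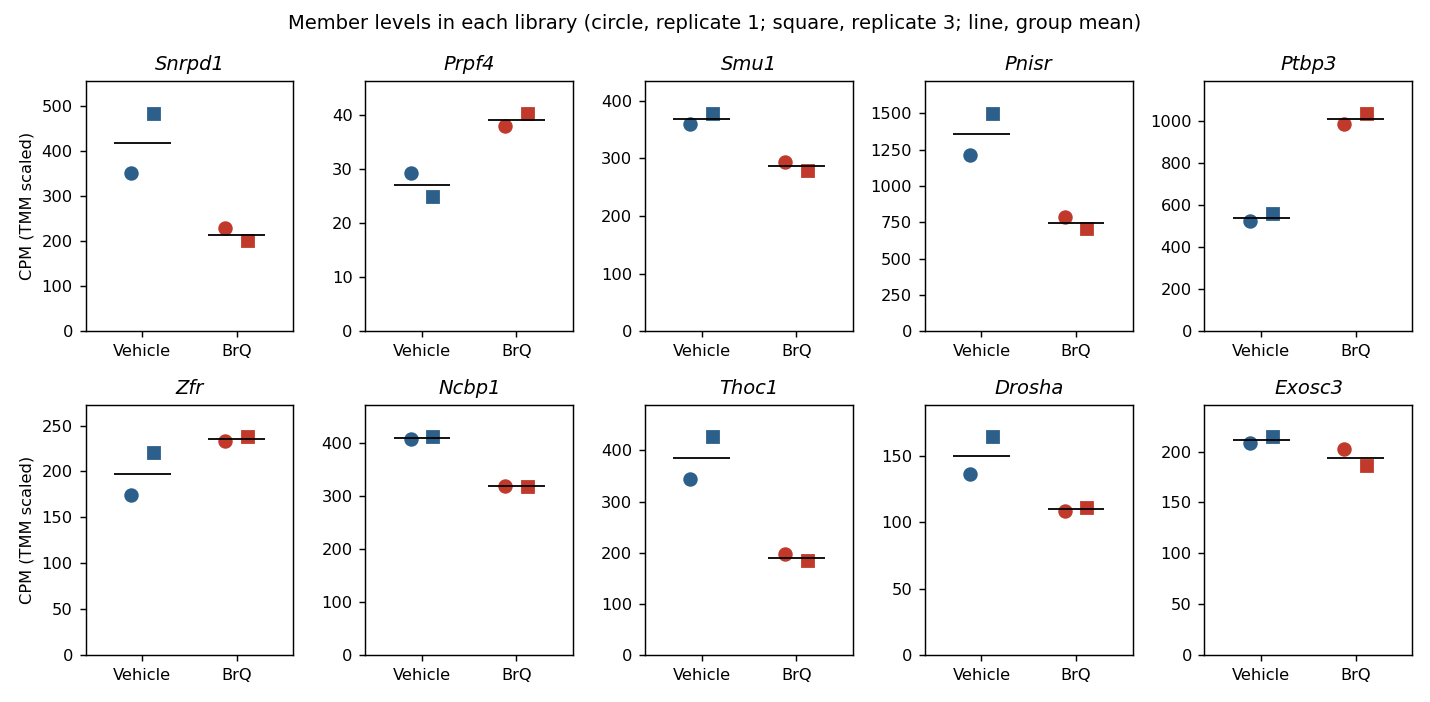
TMM scaled CPM of each member in each library, on axes that start at 0, with Vehicle in blue, BrQ in red, circles for replicate 1, squares for replicate 3 and a line at each group mean (n = 2). Ptbp3 stands near 1012 CPM in BrQ and 541.3 in Vehicle, while Thoc1, Snrpd1 and Pnisr show the opposite order.

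Snrpd1 encodes an Sm protein, one of the ring of proteins that encircles the snRNA in each major spliceosomal snRNP but U6. The gene (ENSMUSG00000002477) lies on chromosome 18 from 10617775 to 10642079 on the plus strand. Its level was 228.1 and 199.2 CPM in BrQ 1 and 3, and 351.9 and 482.5 CPM in Vehicle 1 and 3. Both BrQ mice were below both Vehicle mice, with the 2 Vehicle mice further apart than the 2 BrQ mice. Its log2 fold change of -0.97 ± 0.17 (SE, adjusted p = 0.00184) passed, and it ranged from -1.20 to -0.58 over the other settings. Of its transcript 50-mers, 5.56% are also found in another gene, Gm14277, so the origin of such reads is uncertain. Whether the row as a whole holds Snrpd1 reads was not tested, with Abhd3 beside it at 0 or 1 read per library.

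Smu1 encodes a spliceosomal protein that acts when the particle is activated. Located on chromosome 4 from 40736542 to 40757923 on the minus strand, it held 293.6 and 278.3 CPM in BrQ and 359.9 and 377.2 in Vehicle, a gap wider than the spread in either group. Its log2 fold change was -0.37 ± 0.13 (adjusted p = 0.0428). The call was lost without BrQ 1 (adjusted p = 0.154), BrQ 3 (0.266) or Vehicle 3 (0.101), and with library size alone the value was 0.0066 (adjusted p = 0.979). At their 3′ ends Smu1 and Dnaja1, a chaperone gene on the opposite strand, overlap over 608 bases, 19.5% of the exonic bases of Smu1. Reads of Dnaja1 numbered 10461 and 11564 with BrQ against 6263 and 4898 with vehicle (log2 fold change 0.76 ± 0.14, adjusted p = 0.00233), the opposite direction to Smu1, and how the counting treated the shared part is not stated in the labels.

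The Prpf4 gene, whose product belongs to the particle that brings the catalytic snRNAs to the spliceosome, lies on chromosome 4 from 62408797 to 62426990, plus strand. The interval labelled Prpf4 had 301 and 312 reads with BrQ against 202 and 162 with vehicle, or 38.0 and 40.3 against 29.4 and 24.9 CPM. Its log2 fold change was 0.53 ± 0.20 (adjusted p = 0.0483). Without BrQ 1, BrQ 3 or Vehicle 3 the adjusted p was 0.130, 0.221 and 0.184, and DESeq2 (0.124) and limma voom (0.0518) did not call it. With the fewest reads of the 10, this row also had the widest counting error, 0.10 on the log2 scale.

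Pnisr encodes a nuclear protein that binds the splicing factor pinin and is rich in serine and arginine, as are many splicing proteins. Its position is chromosome 4 from 21847583 to 21876475, plus strand. In its longest coding sequence, 27.1% of 814 codons encode arginine or serine, a larger share than in 99.4% of 21562 genes (median 13.4%). The stretch richest in these codons is shown because this composition sets Pnisr apart from the other members, where the share ran from 10.6% (Exosc3) to 17.6% (Snrpd1). In codons 506 to 535 of the GENCODE transcript, 24 of 30 encode arginine (3) or serine (21), and capitals mark them:
Pnisr coding stretch: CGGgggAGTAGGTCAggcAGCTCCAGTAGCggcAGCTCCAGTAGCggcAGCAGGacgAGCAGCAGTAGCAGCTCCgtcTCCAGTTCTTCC

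Pnisr levels were 788.6 and 703.2 CPM in BrQ 1 and 3 and 1211 and 1497 CPM in Vehicle 1 and 3. The groups were well apart, with Vehicle 3 highest. Its log2 fold change was -0.86 ± 0.14 (adjusted p = 0.00137), from -1.03 to -0.48 over the other settings. None of its exonic bases is shared with another gene.

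Ptbp3 encodes a polypyrimidine tract binding protein, a paralog of the splicing repressors Ptbp1 and Ptbp2, best known from blood-forming cells. It lies on chromosome 4 from 59471868 to 59549364, minus strand. The libraries gave 7826 and 8028 reads with BrQ against 3607 and 3640 with vehicle, which are 988.5 and 1036 against 524.1 and 558.6 CPM. The 2 mice of each group were close to each other (1012 ± 33.5 and 541.3 ± 24.4 CPM, SD, n = 2 each) and the groups were far apart. Its log2 fold change was 0.90 ± 0.13 (adjusted p = 0.00054), from 0.83 to 1.28 over the other settings, and its sign was opposite to that of Snrpd1, Pnisr and Thoc1 in each. Only 1.96% of its 50-mers occur in another gene, the antisense pseudogene 1700018M17Rik, and none in Ptbp1 or Ptbp2.

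Zfr encodes a zinc finger protein that binds RNA and regulates alternative splicing. The gene is on chromosome 15 from 12117831 to 12185683, plus strand. Its level was 233.4 and 237.2 CPM in BrQ and 174.8 and 219.9 in Vehicle. The BrQ mice were nearly equal and both above the Vehicle mice, which differed from each other by more than Vehicle 3 differed from BrQ. Its log2 fold change of 0.25 ± 0.15 was not called (adjusted p = 0.196; 95% interval -0.09 to 0.59). It passed with library size alone (0.64, adjusted p = 0.00514) and with all read rows as the library size (0.47, adjusted p = 0.0246). The value was 0.07 without Vehicle 1 and 0.42 without Vehicle 3, so it rests on which Vehicle mouse it is set against.

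Ncbp1 encodes the large subunit of the nuclear cap-binding complex, which holds the cap of new transcripts and links it to splicing and export. Ncbp1 is on chromosome 4 from 46138613 to 46172403, plus strand. It was the most even member within groups, at 319.8 and 317.6 CPM in BrQ and 407.7 and 411.6 in Vehicle. BrQ and Vehicle differed by -0.36 ± 0.13 on the log2 scale (adjusted p = 0.0409). The call was lost with any 1 library left out, at adjusted p = 0.190 without BrQ 1, 0.224 without BrQ 3, 0.0534 without Vehicle 1 and 0.0779 without Vehicle 3, and with library size alone the value was 0.0087 (adjusted p = 0.972). It shares 4.70% of its exonic bases with Tstd2 and Xpa on the opposite strand.

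Thoc1 encodes a subunit of the THO complex, which travels with RNA polymerase and prepares mRNA for export. It lies on chromosome 18 from 9957906 to 9995489, plus strand. Its level was 196.8 and 184.3 CPM in BrQ and 344.0 and 425.5 in Vehicle, so each Vehicle mouse stood well above each BrQ mouse. The log2 fold change was -1.01 ± 0.15 (adjusted p = 0.00074), and it ranged from -1.18 to -0.63 over the other settings. Thoc1 shares 24.3% of its exonic bases with Usp14, a deubiquitinase gene on the opposite strand. Usp14 had 1787 and 1542 reads with BrQ against 1733 and 2035 with vehicle, a smaller difference in the same direction that missed the threshold (-0.41 ± 0.15 on the log2 scale, adjusted p = 0.0526).

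Drosha encodes the nuclease that cuts microRNA hairpins out of primary transcripts in the nucleus. The locus is on chromosome 15 from 12824815 to 12935291, plus strand. It held 108.8 and 111.0 CPM in BrQ and 136.9 and 164.2 in Vehicle. Both BrQ mice were below both Vehicle mice, though the 2 Vehicle mice lay about as far apart as Vehicle 1 lay from BrQ. The log2 fold change was -0.45 ± 0.15 (adjusted p = 0.0353). The adjusted p was 0.172 without BrQ 1, 0.175 without BrQ 3 and 0.138 without Vehicle 3, and the value with library size alone was -0.075 (adjusted p = 0.759).

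Exosc3 encodes an RNA-binding cap subunit of the RNA exosome, the complex that trims and degrades RNA from the 3′ end. It lies on chromosome 4 from 45316613 to 45342732, minus strand. Its level was 202.2 and 185.9 CPM in BrQ and 207.9 and 213.9 in Vehicle, the closest groups of the 10. The log2 fold change of -0.12 ± 0.14 did not pass (adjusted p = 0.497), and the 95% interval from -0.43 to 0.19 leaves room for changes of either sign. The value turned to 0.25 with library size alone and 0.09 with all read rows as the library size, and it was called under 0 of 15 settings.

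The scaling set the sign for Smu1, Ncbp1 and Exosc3, while the other 7 members kept theirs. TMM factors were 1.14 in both BrQ libraries and 0.94 and 0.82 in Vehicle 1 and 3. Without them, using library size alone, the median log2 fold change of all features moved from 0.05 to 0.42, and to 0.26 when all read rows set the library size. The split of calls over all features moved with it, from 2409 higher and 2267 lower to 3607 and 1072 with library size alone and 3092 and 1578 with all read rows. Among the members, library size alone called Ptbp3, Prpf4 and Zfr higher and Snrpd1, Pnisr and Thoc1 lower. A scaling shifts all features of a library alike, so a member's distance from the median of all features is all but fixed by construction and is given as a description only. Ptbp3 lay 0.85 to 0.86 above it, Zfr 0.20 to 0.22 above it, and Thoc1 between -1.07 and -1.05, Snrpd1 between -1.02 and -0.999 and Pnisr between -0.92 and -0.90 against it. Smu1 and Ncbp1 lay between -0.42 and -0.41 on that measure and Exosc3 at -0.17.

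**Figure D3:**
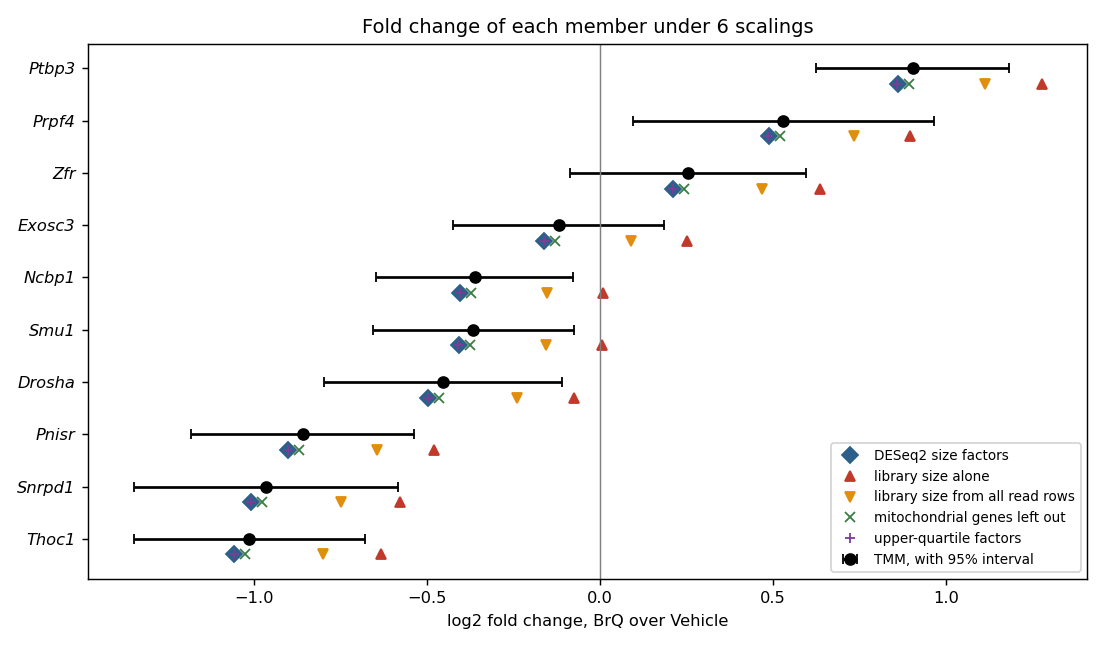
Log2 fold change of BrQ over Vehicle for each member with TMM (black, bars are 95% intervals) and with 5 other scalings (coloured symbols, drawn just below). Only Ptbp3, Prpf4 and Zfr lie above 0 and only Drosha, Pnisr, Snrpd1 and Thoc1 below 0 under all 6 scalings shown.

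Ratios of reads between members in the same library need no scaling, and the ones named were chosen after the values were seen. Of all 45 pairs of members, 40 had ratios that did not overlap between the groups and 5 had ratios that did. The matching share over pairs of all features was not computed, so this count is given as a description only. In CPM, 76.1% of single features already did not overlap between the groups. Pairs that share a member are also not independent of each other. Per read of Pnisr, Ptbp3 had 1.25 and 1.47 reads in BrQ 1 and 3, and 0.43 and 0.37 in Vehicle 1 and 3. Relative to Thoc1, it had 5.02 and 5.62 against 1.52 and 1.31, a ratio 3.76-fold higher in BrQ. Both ratios kept the groups apart by far more than the mice of a group differed. Zfr to Thoc1 was 1.19 and 1.29 against 0.51 and 0.52, so although Zfr itself was not called, its reads relative to Thoc1 were 2.41-fold higher in BrQ. Among the 5 that overlapped, Thoc1 to Snrpd1 was 0.86 and 0.92 in BrQ and 0.98 and 0.88 in Vehicle, and Smu1 to Ncbp1 was 0.92 and 0.88 against 0.88 and 0.92. No test of a single ratio was run; with 2 mice per group an exact permutation test cannot go below p = 0.33.

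**Figure D4:**
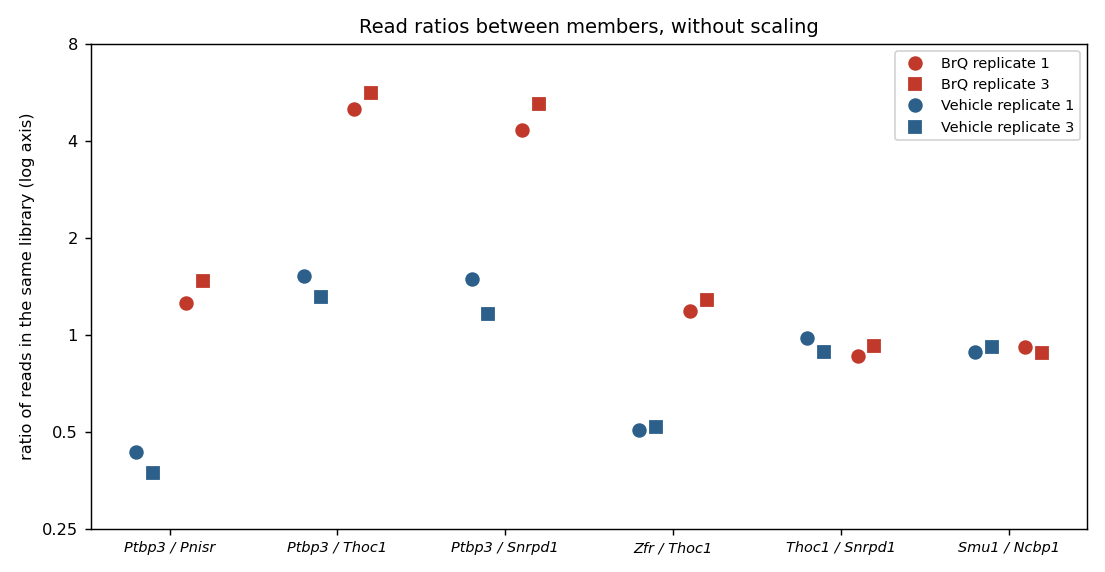
Ratio of reads between pairs of members in each library (log axis), with Vehicle in blue, BrQ in red, circles for replicate 1 and squares for replicate 3. The 4 ratios on the left keep the groups apart, while Thoc1 to Snrpd1 and Smu1 to Ncbp1 lie between 0.86 and 0.98 in all 4 libraries.

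Levels were compared between genes as CPM per kilobase of annotated exon, a measure that is lowered where rare isoforms add exon length. Averaged over the 4 libraries, Snrpd1 (153.7) and Exosc3 (152.9) were highest and their ranges overlapped. Exosc3 stood above Ncbp1 (107.5) in all 4 libraries with no overlap. Ncbp1, Smu1 (104.9), Ptbp3 (103.8) and Pnisr (103.0) followed with ranges that overlapped from each to the next. Zfr (36.6), Thoc1 (32.2) and Drosha (21.9) came below all of these, with Zfr overlapping Thoc1 and Thoc1 overlapping Drosha. The interval labelled Prpf4 was lowest, at 4.38 to 7.10, below the 18.3 that was the lowest value of Drosha. The order differed between groups: Ptbp3 ranked 6 in Vehicle (72.4) and 2 in BrQ (135.3), while Snrpd1 ranked 1 in Vehicle (203.3) and 3 in BrQ (104.1), and Pnisr 3 and 6 (132.9 and 73.2).

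**Figure D5:**
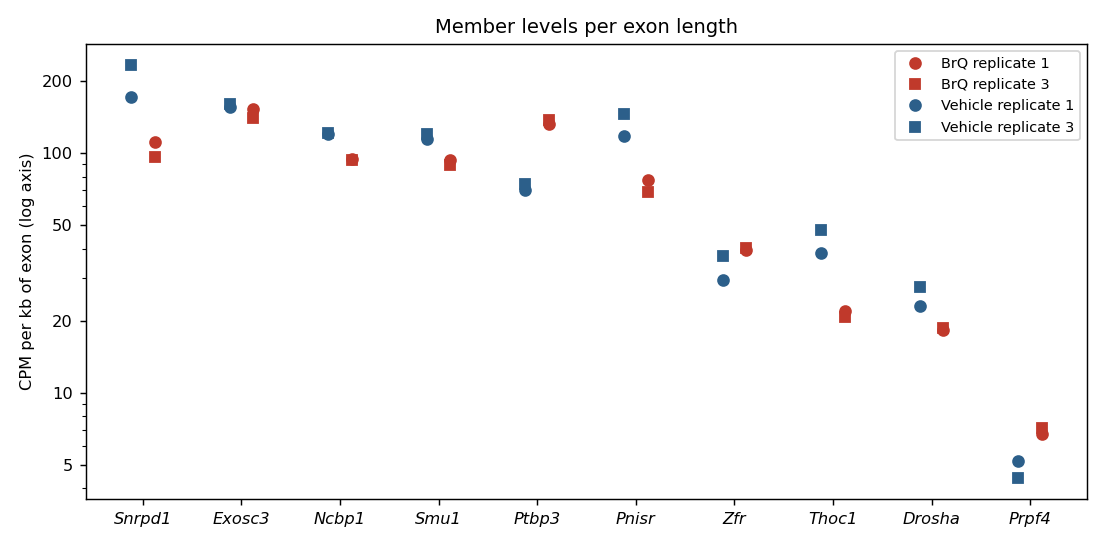
CPM per kb of exon (log axis) for the 10 members, ordered by their mean over the 4 libraries, with Vehicle in blue, BrQ in red, circles for replicate 1 and squares for replicate 3. Prpf4 lies below the others by a wide gap, and Ptbp3 is the only member of the upper 6 whose BrQ libraries lie above its Vehicle libraries.

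Of the members, 5 matched RefSeq promoters (250 bases before to 50 after a start site, GRCm38.p6): Zfr, Ncbp1, Drosha, Exosc3 and Prpf4. The first 4 are shown, with Zfr and Exosc3 not called in the main comparison and Ncbp1 and Drosha called lower there. Several other settings ended the calls of Ncbp1 and Drosha. The windows are Zfr at chr15:12117601-12117900 (plus), Ncbp1 at chr4:46138261-46138560 (plus), Drosha at chr15:12824565-12824864 (plus) and Exosc3 at chr4:45320567-45320866 (minus). RefSeq start sites can differ from the GENCODE gene ends given above. The Exosc3 window lies inside the GENCODE interval of 45316613 to 45342732, and the Ncbp1 window ends before the GENCODE start of 46138613. Capitals mark matches, on either strand, to motifs of general promoter factors: ETS (CCGGAAG), SP1 (GGGCGG), NFY (CCAAT) and the TATA box (TATAAA). CRE (TGACGTCA), YY1 (AAGATGGC) and ARE (TGACNNNGC, an electrophile response core) were also searched and had 0 matches in these 4.
Zfr promoter: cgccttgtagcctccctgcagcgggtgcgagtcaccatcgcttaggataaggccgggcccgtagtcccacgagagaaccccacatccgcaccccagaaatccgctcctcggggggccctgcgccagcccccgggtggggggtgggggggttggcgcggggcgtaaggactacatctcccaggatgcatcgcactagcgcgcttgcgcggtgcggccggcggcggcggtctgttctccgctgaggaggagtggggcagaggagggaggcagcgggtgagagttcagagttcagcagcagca
Ncbp1 promoter: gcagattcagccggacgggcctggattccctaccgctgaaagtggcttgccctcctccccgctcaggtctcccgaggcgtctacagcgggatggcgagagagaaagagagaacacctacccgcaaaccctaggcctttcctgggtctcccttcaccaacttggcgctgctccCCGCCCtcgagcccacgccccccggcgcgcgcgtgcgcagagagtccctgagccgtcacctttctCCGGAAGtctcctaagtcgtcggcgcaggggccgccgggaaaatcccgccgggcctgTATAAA
Drosha promoter: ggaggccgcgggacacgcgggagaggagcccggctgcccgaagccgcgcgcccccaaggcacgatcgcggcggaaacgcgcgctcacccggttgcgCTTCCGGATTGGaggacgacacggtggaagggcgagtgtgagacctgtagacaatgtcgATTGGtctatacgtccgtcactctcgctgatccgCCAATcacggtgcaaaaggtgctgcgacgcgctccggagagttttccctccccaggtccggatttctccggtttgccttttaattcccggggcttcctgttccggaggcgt
Exosc3 promoter: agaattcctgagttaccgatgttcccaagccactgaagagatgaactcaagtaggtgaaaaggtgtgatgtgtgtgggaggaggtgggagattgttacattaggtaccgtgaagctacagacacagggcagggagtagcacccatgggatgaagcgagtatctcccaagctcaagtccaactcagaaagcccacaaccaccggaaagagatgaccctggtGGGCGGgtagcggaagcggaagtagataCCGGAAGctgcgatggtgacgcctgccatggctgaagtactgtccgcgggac

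The ETS letters were present in Ncbp1, Drosha and Exosc3 and absent from these letters of Zfr and Prpf4; of 32851 promoters of this length, 8.86% hold them. In Drosha the ETS match runs directly into the first of 3 NFY matches without overlap, and 37.4% of promoters hold an NFY match. SP1 letters occurred in Ncbp1 and Exosc3 (35.7% of promoters), and the TATA box letters in Ncbp1 (13.6%). The latter lie after the RefSeq start site but before the GENCODE gene start. GC content was 69.0% in Zfr, 65.7% in Ncbp1, 64.3% in Drosha and 54.0% in Exosc3, against a median of 52.7%. No difference between members was tested here, and a match is not a site shown to be bound.

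Other genes of the same pathways were not read by name, since most symbols appeared not to sit on the reads of their genes. Of 127 other splicing, export, microRNA and exosome gene names, all were in the tables, but 55 averaged under 1 read and 44 reached 100 reads, against 10 of 10 members. The median was 6 reads per library, against 2130 for the members. Because the members were taken from chromosome parts where symbols appeared to hold their own reads, this contrast follows from that choice. Of the 127 other names 60 were tested, and 8 passed as higher and 27 as lower in BrQ, by edgeR. Over all features 23.6% passed as higher and 22.2% as lower. Among 18 core snRNP names 11 averaged under 1 read, 7 were tested, 0 were higher and 3 lower. Among 18 hnRNP and PTB names 10 were tested, 1 higher and 7 lower. Late spliceosome factors had 2 higher and 1 lower of 3 tested, and serine and arginine rich (SR) names 0 and 0 of 3. In each remaining class more names were lower than higher. Reads differed by class: of 9 microRNA processing names, 8 averaged at least 100 reads and 0 under 1, with a median of 256.5. Whether these rows hold reads of the named genes was not shown, so no direction is read from them.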

How the data were processed

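Total RNA of 4 lymph node samples was sequenced in paired ends, 1 library per mouse, per the labels' protocols. The authors deposited a table of raw read counts per library. HTSeq 0.11.2, HISAT2 2.1.0, Trim Galore 0.6.2 and mm10 are named in the submitters' processing notes; no annotation release or strand setting is. The 5 closing rows that name no gene (87.0% to 89.0% of read rows) stayed out of the tests and of library sizes, other than the alternative that takes all read rows as the library size. The 2 libraries of a group differed beyond sampling noise, with a chi-square over its degrees of freedom of 13.9 for BrQ and 31.1 for Vehicle.

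Tests used edgeR 4.0.16 in R 4.3.3 (quasi-likelihood, filterByExpr, TMM, group as the only term) on all features and all 4 libraries, with Benjamini-Hochberg adjustment over 10223 features and a threshold of 0.05. SEs are the fold change over the root of F. Of the alternatives, 15 were refits: 5 scalings, 2 low count filters, the legacy fit, DESeq2 1.42.0, limma voom 3.58.1, the replicate number as a block, and each library left out. The script was tested on simulated data. Positions, exon lengths (union of exons) and transcripts came from GENCODE M21 (GRCm38), promoters from RefSeq (GRCm38.p6). Figures were drawn with matplotlib 3.10.9. All 10 members are named by rule. Members and lists were chosen with earlier results of these data known. With 2 mice per group, p-values rest on the spread of these 4 mice alone. The test draws each gene's spread toward that of the other features (residual plus prior degrees of freedom 9.97). An SE is thus not the spread of that gene alone. Counting error was 0.02 to 0.10 on the log2 scale, below the SE for each member.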

Additional observations from a re-analysis of the deposited data

Results flagged for a closer look

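Reads in no gene interval, used only in 1 alternative library size, averaged 88.7% of all read rows in BrQ and 87.3% in Vehicle. Both BrQ libraries lay above both Vehicle libraries.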

How the results depend on the processing

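Snrpd1, Pnisr, Ptbp3 and Thoc1 kept direction and call under all 15 refits. The share of all features that did so is not given here. The members called numbered 8 (2 higher, 6 lower), beside 4676 of 10223 features. With no low count filter there were 4 (1 higher, 3 lower), beside 2481 of 21036 features. With library size alone or from all read rows 3 were lower, and the members' median of -0.36 became 0.0077 and -0.15. With DESeq2 size factors, mitochondrial genes left out, upper-quartile factors, the DESeq2 test, limma voom or the legacy fit 1 was higher, as without Prpf4 or without Prpf4 and Snrpd1 (chosen after seeing the data). Leaving out 1 library gave 4 to 7 called, 1 to 2 higher and 3 to 5 lower, and 2031 to 4376 features; a group is then 1 mouse, assumed to vary like the other group. With library size alone Smu1, Ncbp1 and Exosc3 reversed to 0.0066, 0.0087 and 0.25, and Exosc3 to 0.0899 with all read rows; the cause was not tested.

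With the replicate number as a block, 4 members were called (1 higher, 3 lower), beside 4190 of 10223 features, against 4676 in the main test. Labels do not say that the numbers pair mice, and replicate differences correlated at -0.12 between the groups. In the crossed pairing, chosen after seeing the data, 8 members were called (2 higher, 6 lower), beside 5284 of 10223 features.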
